A study of Mus musculus with 6 samples.

Results

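The histone genes of the HIST clusters encode the 4 core histones H2A, H2B, H3 and H4 and the linker histone H1. They were chosen by symbol, as every gene whose name starts with Hist1h, Hist2h, Hist3h or Hist4h, leaving out the symbol with the ending -ps. This gave 69 of the 41128 genes listed, of which 6 are H1, 20 H2A, 18 H2B, 12 H3 and 13 H4 genes. By name, 56 belong to the Hist1 cluster on chromosome 13, 10 to Hist2 on chromosome 3, 2 to Hist3 on chromosome 11 and 1 to Hist4 on chromosome 6. GENCODE M21 lists *Hist1h2aj* and *Hist1h2al* as pseudogenes and the identifier of *Hist2h2bb* as a long noncoding RNA, and these 3 were counted as members but not tested.

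Most mRNAs of these genes are made in S phase, when new DNA is packed into chromatin. They end in a conserved stem-loop that is bound by the stem-loop binding protein SLBP, and lack the poly(A) tail of other mRNAs. Some histone genes can also use a poly(A) site further downstream, and selection for poly(A) favors RNA of that kind.

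The leukemias arose from KIT+ bone marrow cells of CD45.1+ donors carrying retroviral *Hoxa9* together with either the empty vector MTV (*Hoxa9*/MTV) or human *IRX3* cDNA (*Hoxa9*/*IRX3*). They grew in irradiated CD45.2+ congenic recipients, and the labels give the strain C57BL/6 and no age. Viable donor KIT+Gr1+ cells were sorted from the BM of 3 sick mice of each cohort, numbered 1.1, 1.2 and 1.4 for *Hoxa9*/MTV and 3.2, 3.3 and 3.5 for *Hoxa9*/*IRX3*. Each mouse gave 1 strand-specific polyA library from 200 ng of total RNA with 14 cycles of amplification and paired ends of 75 bases. The question here is how the level of histone transcripts compares between the cohorts.

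Levels are RPKM, the reads on a gene divided by its length in kilobases and by the depth of the library. The number of reads behind a value, recovered from the steps between low values, shows how thin the evidence is, though whether single mates or pairs were counted is not given in the sources used here. The libraries were scaled to 8843083, 8305937 and 9672522 reads in mice 1.1, 1.2 and 1.4 and to 8860734, 9803621 and 7979246 reads in mice 3.2, 3.3 and 3.5. In these libraries 1 read on a gene of 500 bases amounts to between 0.204 and 0.251 RPKM. All HIST genes together held 1734, 2492 and 2121 reads in the *Hoxa9*/MTV mice and 1292, 676 and 509 reads in the *Hoxa9*/*IRX3* mice. The median over genes and mice was 3 reads. Of the 69 genes, 61 had at least 1 read, 8 were at 0 in every mouse, and 18 had at most 3 reads in every mouse.

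The introduced genes were read first. *Irx3* was at 0 in the *Hoxa9*/MTV cohort and at 15.1, 0.421 and 0.148 RPKM in mice 3.2, 3.3 and 3.5. Whether these reads came from the human cDNA or the mouse gene was not tested. *Hoxa9* ranged from 174 to 363 RPKM in *Hoxa9*/MTV and from 154 to 242 RPKM in *Hoxa9*/*IRX3* mice. The sorted cells carried the myeloid transcripts *Elane*, *Mpo* and *Ly6c2* in every mouse, and *Kit* lay between 1.63 and 3.12 RPKM. *Ptprc* lay between 1.53 and 2.09 RPKM and *Itgam* between 0.690 and 5.34 RPKM, while *Ly6c1* was at 0 in mice 1.2, 1.4 and 3.3. *Ly6g* was near the floor in the *Hoxa9*/MTV mice, at 0.145, 0.124 and 0.0532 RPKM on 5, 4 and 2 reads. It was at 1.42, 0.682 and 1.13 RPKM in the *Hoxa9*/*IRX3* mice. *Ly6g* thus rose by 1.35 on the log2 scale (limma adjusted p = 0.0205), as did *Elane*, by 1.91 (adjusted p = 0.0144). The part of this difference between the sorted cells in the histone values was not tested.

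The annotated transcripts were searched for the stem-loop and for how far they run past it. Sequence past their ends was not analysed here, and many transcripts without a match are short, such as those of *Hist1h4k* with 312 bases and *Hist1h3i* with 411 bases, so the lack of a match does not show that a gene lacks the stem-loop. GENCODE M21 holds a transcript for 67 members. The longest protein-coding transcript was taken, or the longest of any type where there was none, and is called the longest here. The histone stem-loop consensus was found in the longest transcript of 43 members, against 0.0969% of 58797 protein-coding transcripts of all genes. *Hist1h2bp*, named here after its values were seen, holds it in a shorter transcript alone. In 22 members the longest transcript ends over 100 bases after the stem-loop and in 21 within 100 bases. The following windows of GRCm38 are shown because they belong to the members that the results turn on, with the stem-loop match in capitals and 5 bases on either side. All lie after the coding sequence. The windows are *Hist1h1c* at chr13:23739507-23739532 (plus strand), *Hist1h1e* at chr13:23621777-23621802 (minus strand), *Hist1h3d* at chr13:23576239-23576264 (plus strand), *Hist1h2bg* at chr13:23571838-23571863 (plus strand), *Hist3h2a* at chr11:58955167-58955192 (plus strand) and *Hist1h4i* at chr13:22040961-22040986 (minus strand).
Hist1h1c: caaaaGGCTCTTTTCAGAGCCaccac
Hist1h1e: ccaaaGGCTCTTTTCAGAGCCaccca
Hist1h3d: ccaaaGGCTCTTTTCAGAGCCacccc
Hist1h2bg: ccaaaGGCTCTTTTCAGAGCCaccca
Hist3h2a: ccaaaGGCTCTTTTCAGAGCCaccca
Hist1h4i: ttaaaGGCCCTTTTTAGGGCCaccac
The annotated transcript of *Hist1h1c* goes on for 840 bases after the stem-loop, that of *Hist3h2a* for 1643 bases and that of *Hist1h4i* for 330 bases. *Hist1h1a* and *Hist1h1b* hold no match in their annotated transcripts of 741 and 743 bases. The median level was 1.08 RPKM for the 22 members with the longer ends, 0.546 RPKM for the 21 with short ends and 0.530 RPKM for the 24 without a match in the longest transcript. The median log2 fold changes of the tested genes in these 3 groups were -1.03, -0.87 and -0.88, and the last group is set in part by where the annotation ends.

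Near-identical copies limit what can be read for single members. The authors kept only alignments of good mapping quality, which removes reads that fit several copies. Of all windows of 75 bases in a member's transcript, the median share found in no other gene was 99.3% for H1, 28.5% for H2A, 55.7% for H2B, 41.0% for H3 and 75.4% for H4. For 5 members, no window was unique. The 31 members under 50% unique windows had a median level of 0.371 RPKM, and the 36 at 50% or more had 1.31 RPKM. The groups by stem-loop also differed in this share, in the order of their levels. Its median was 78.0% with the longer ends, 41.4% with short ends and 29.8% without a match. *Hist1h1a* and *Hist1h1b* are unique over their whole length, *Hist1h1c* over 93.3%, *Hist1h1e* over 71.6% and *Hist1h3d* over 77.9%. For 21 of the 61 members with reads, among them *Hist1h1a*, *Hist1h1e* and *Hist1h3d*, the values do not give whole reads on a GENCODE M21 span, so these shares and the lengths after the stem-loop describe the annotation and not the span counted.

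Summed over the 69 members, the level was 154, 265 and 160 RPKM in mice 1.1, 1.2 and 1.4 and 103, 58.8 and 54.2 RPKM in mice 3.2, 3.3 and 3.5. The cohorts did not overlap, with mouse 1.2 the highest and mouse 3.2 the nearest to the *Hoxa9*/MTV mice. The means were 193 ± 62.6 and 71.9 ± 26.8 RPKM (SD, n = 3 each), a ratio of 0.373 or a log2 ratio of -1.42. Mouse 1.2 held the highest value of the 6 mice in 29 of the 49 tested members. In bulk samples, fewer cells that make histone RNA and less of it per cell cannot be told apart. The DNA replication genes, which also act in S phase, had a ratio of means of 0.995 in the same libraries. Their levels do not measure the share of cells in S phase, which was not tested.

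Fold changes set *Hoxa9*/*IRX3* against *Hoxa9*/MTV mice on the scale log2(RPKM + 0.5), which understates those of weakly expressed genes, and were tested with limma with Benjamini-Hochberg adjustment over 9522 protein-coding genes above 0.5 RPKM in at least 1 mouse. Genes with an adjusted p under 0.05 that also differed 2-fold or more were called. Of the 49 HIST genes tested, 4 fell (8.16%), against 193 (2.03%) of all tested genes, and 0 rose, against 105 (1.10%). An unadjusted p under 0.05 was found for 25 members (51.0%) in the lower direction, against 16.0% of all tested genes, and for 0 in the higher one, against 8.34%. The 3 *Hoxa9*/*IRX3* values all lay below the 3 *Hoxa9*/MTV values in 25 of the 49, against 21.6% of all tested genes, and all above in 0, against 12.2%. In *Hist1h2ag*, *Hist1h2bj*, *Hist1h4c* and *Hist1h4k* the nearest mice of the cohorts held the same number of reads and were set apart by library depth alone. In *Hist1h4i* and *Hist2h2be* a *Hoxa9*/*IRX3* mouse even held more reads than a *Hoxa9*/MTV mouse, so depth also set these apart. *Hist1h2ag* and *Hist1h4c* are named here after their values were seen. The log2 fold change was below 0 in 46 of 49 members, with a median of -0.88, against -0.06 over all tested genes. The filter let in some members through *Hoxa9*/MTV mice alone, which favors a negative sign for them. Without a filter on low values, 51 of 57 members were below 0, with a median of -0.82. An exact test of 3 against 3 mice cannot reach a p under 0.1, so limma's adjusted p stands beside single genes. The count of 4 moved with single mice, to 2, 0 and 0 without mouse 1.1, 1.2 or 1.4 and to 11 without mouse 3.2. With limma voom on the recovered reads 1 of the 49 members was called lower, *Hist1h1c*, and 0 higher. Of all 9522 tested genes, that fit called 222 lower and 143 higher, so the members showed no excess of calls there. Of the 49, 27 had at most 10 reads in every mouse.

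**Figure D1:**
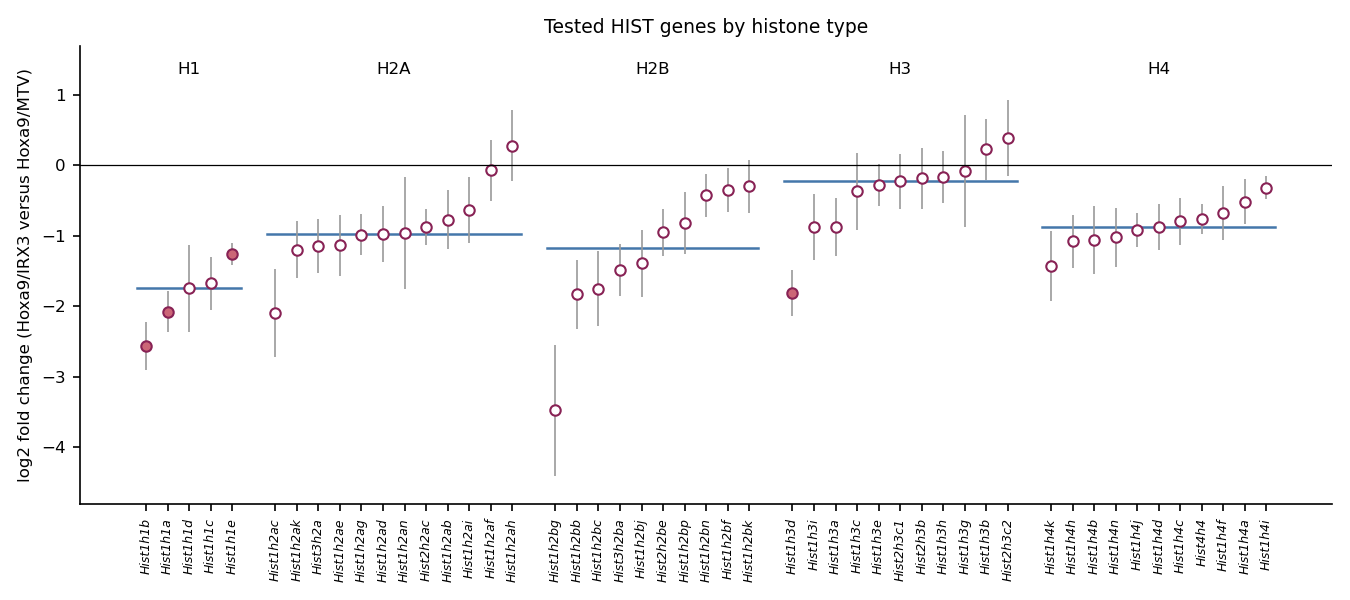
Log2 fold change of the 49 tested HIST genes between *Hoxa9*/*IRX3* and *Hoxa9*/MTV mice on the log2(RPKM + 0.5) scale, with the standard error from limma as the bar. Filled points mark the 4 genes called lower, blue lines the median of each histone type, and 46 of the 49 points lie below 0.

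H1, the linker histone that binds DNA between nucleosomes, held 3 of the 4 called genes. Summed H1 levels were 59.9, 103 and 62.2 RPKM in mice 1.1, 1.2 and 1.4 and 34.5, 14.8 and 16.9 RPKM in mice 3.2, 3.3 and 3.5. The cohorts did not overlap, and the ratio of means was 0.294. All 5 tested H1 genes were lower without overlap, against 21.6% of all tested genes, with a median log2 fold change of -1.75. The sixth, the testis gene *Hist1h1t*, was at 0 in every mouse.
*Hist1h1c* (ENSMUSG00000036181; chr13:23738808-23740367, plus strand), which encodes H1.2, had the highest mean RPKM of the HIST genes and between 20.9% and 32.1% of the summed level in each mouse. In mice 3.3 and 3.5 the H4 gene *Hist1h4i* was higher. It was at 49.4, 75.5 and 49.1 RPKM in mice 1.1, 1.2 and 1.4 and at 31.4, 12.3 and 13.7 RPKM in mice 3.2, 3.3 and 3.5. The lowest *Hoxa9*/MTV mouse was above the highest *Hoxa9*/*IRX3* mouse. The log2 fold change was -1.68 (limma adjusted p = 0.0580, SE 0.38), which missed the threshold. Without mouse 3.2 the adjusted p was 0.0140, and over all alternatives that use an adjusted p it lay between 0.0140 and 0.196.
*Hist1h1b* (ENSMUSG00000058773; chr13:21779883-21780625, minus strand), which encodes H1.5, was at 2.74, 5.35 and 3.34 RPKM in mice 1.1, 1.2 and 1.4 and at 0.608, 0.137 and 0 RPKM in mice 3.2, 3.3 and 3.5. These are 18, 33 and 24 reads against 4, 1 and 0 reads, so that its *Hoxa9*/*IRX3* level was close to the limit of detection. It fell by 2.56 on the log2 scale (limma adjusted p = 0.0143, SE 0.34), the largest fall among the 4 called genes. The call was lost with limma voom on the recovered reads and without mouse 1.1, 1.2 or 1.4, and over the alternatives limma's adjusted p lay between 0.00992 and 0.0799.
*Hist1h1a* (ENSMUSG00000049539; chr13:23763666-23764406, plus strand), which encodes H1.1, was at 2.11, 4.50 and 3.70 RPKM in mice 1.1, 1.2 and 1.4 and at 0.527, 0.159 and 0.586 RPKM in mice 3.2, 3.3 and 3.5. The latter rest on 3, 1 and 3 reads, against 12, 24 and 23 reads in the *Hoxa9*/MTV mice. It fell by 2.07 (limma adjusted p = 0.0169, SE 0.30), a call lost with voom on the recovered reads and without mouse 1.2 or 1.4, with adjusted p by limma from 0.0162 to 0.0962 over the alternatives.
*Hist1h1e* (ENSMUSG00000051627; chr13:23620629-23622558, minus strand), which encodes H1.4, was at 3.02, 4.67 and 3.87 RPKM in mice 1.1, 1.2 and 1.4 and at 1.36, 1.36 and 1.17 RPKM in mice 3.2, 3.3 and 3.5. The *Hoxa9*/*IRX3* mice were close together. It fell by 1.26 (limma adjusted p = 0.0123, SE 0.16). Voom, on the tested genes or on all genes with reads, ended this call, as did leaving out mouse 1.2 or 1.4, and the adjusted p by limma ranged from 0.0109 to 0.144. *Hist1h2be* overlaps *Hist1h1e* on the same strand by 496 bases in GENCODE M21, but the values of *Hist1h1e* do not give whole reads on that span of 1930 bases, so whether the overlap bears on them was not tested.
*Hist1h1d*, which encodes H1.3, was at 2.58, 12.8 and 2.22 RPKM in mice 1.1, 1.2 and 1.4 and at 0.607, 0.823 and 1.52 RPKM in mice 3.2, 3.3 and 3.5. Mouse 1.2 set its mean, and the log2 fold change of -1.75 did not pass (limma adjusted p = 0.148, SE 0.61).

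**Figure D2:**
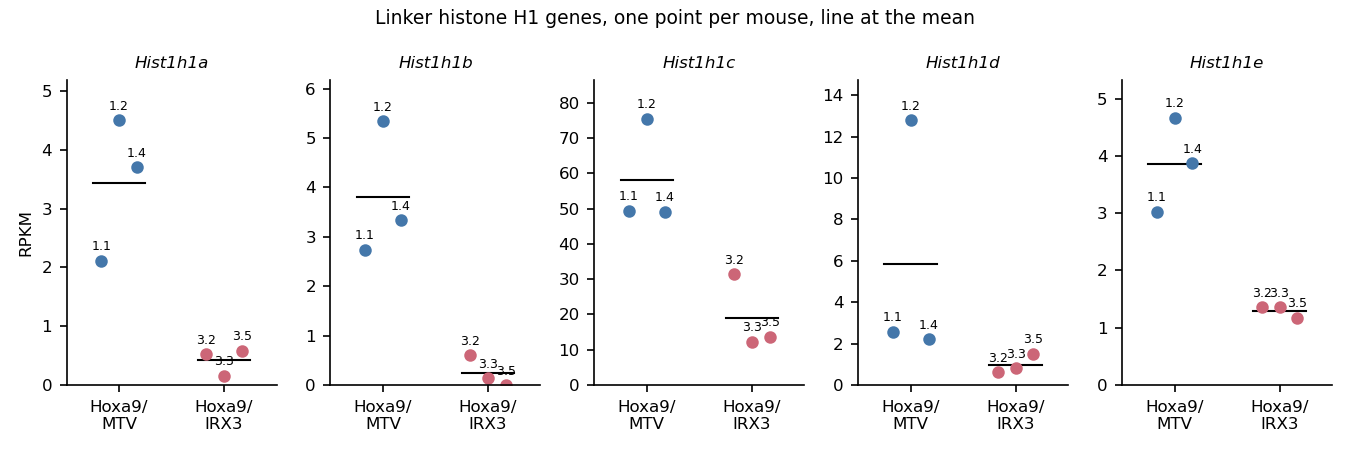
RPKM of 5 linker histone genes in each mouse, with the line at the mean of each cohort and the mouse number above each point. The 3 *Hoxa9*/*IRX3* mice lie below the 3 *Hoxa9*/MTV mice in all 5 panels.

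As described, the 5 tested H1 genes all had lower values in the *Hoxa9*/*IRX3* mice, and 3 of them were called. The 200 bases before the RefSeq start in GRCm38.p6 are shown for the 3 called genes and *Hist1h1c*. Capitals mark on either strand the motif CCAAT, the TATA box letters TATAAA and, as a short element known from H1 promoters, the letters AAACACA. No 2 of these matches overlap in the windows shown. The windows are chr13:23763468-23763667 (plus strand), chr13:21780626-21780825 (minus strand), chr13:23622559-23622758 (minus strand) and chr13:23738607-23738806 (plus strand).
Hist1h1a: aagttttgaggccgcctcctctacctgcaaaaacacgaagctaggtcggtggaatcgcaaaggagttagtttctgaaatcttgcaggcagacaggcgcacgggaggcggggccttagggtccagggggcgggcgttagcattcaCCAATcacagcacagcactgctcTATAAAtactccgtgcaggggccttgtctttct
Hist1h1b: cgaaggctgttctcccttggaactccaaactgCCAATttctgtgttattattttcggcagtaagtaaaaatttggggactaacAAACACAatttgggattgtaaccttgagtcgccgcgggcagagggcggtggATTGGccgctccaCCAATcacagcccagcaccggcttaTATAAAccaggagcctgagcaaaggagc
Hist1h1e: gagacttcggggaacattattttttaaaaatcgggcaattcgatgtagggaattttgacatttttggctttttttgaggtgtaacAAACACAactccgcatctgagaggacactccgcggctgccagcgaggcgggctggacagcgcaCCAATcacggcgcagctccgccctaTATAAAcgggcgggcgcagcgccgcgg
Hist1h1c: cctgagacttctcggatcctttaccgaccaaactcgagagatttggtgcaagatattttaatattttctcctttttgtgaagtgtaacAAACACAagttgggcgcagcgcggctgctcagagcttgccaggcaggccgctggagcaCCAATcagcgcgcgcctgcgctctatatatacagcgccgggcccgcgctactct
In the 250 bases before the start, CCAAT was found in 6 of 6 H1 promoters, and in 33.8% of all 32851 RefSeq promoters. AAACACA was found in 5 of 6 H1 promoters, in 9 of the 62 promoters of HIST genes and in 6.25% of all promoters. TATAAA was found in 4 of 6 H1 promoters and in 12.4% of all. By type, CCAAT was found in 17 of 17 H2A promoters, 17 of 17 H2B promoters, 8 of 10 H3 promoters and 3 of 12 H4 promoters. A match is a description of letters, and no binding was measured here. RefSeq promoters were matched for 61 of the 69 members.

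H2A genes, whose products pair with H2B in the nucleosome, summed to 19.05, 35.6 and 22.1 RPKM in mice 1.1, 1.2 and 1.4 and to 13.0, 6.12 and 7.34 RPKM in mice 3.2, 3.3 and 3.5. The cohorts did not overlap, at a ratio of means of 0.345. Of 12 tested H2A genes 0 were called by limma and 0 by limma voom. In the lower direction, 7 had an unadjusted p under 0.05, against 16.0% of all tested genes, and 6 did not overlap, against 21.6%. Without mouse 3.2, *Hist1h2ac* and *Hist3h2a* were called lower. The median log2 fold change of the 12 genes, with all mice, was -0.97.
*Hist3h2a*, of the Hist3 pair, had the highest mean RPKM of the H2A genes, with 7.27, 6.23 and 7.18 RPKM in mice 1.1, 1.2 and 1.4 and 5.21, 1.33 and 3.04 RPKM in mice 3.2, 3.3 and 3.5. The cohorts did not overlap, and its log2 fold change was -1.15 (limma adjusted p = 0.136). *Hist1h2ac*, which was above it in mouse 1.2, was at 2.85, 7.84 and 3.69 RPKM in the *Hoxa9*/MTV cohort and at 2.13, 0.643 and 0 RPKM in the *Hoxa9*/*IRX3* mice, in the order of the mouse numbers, with a log2 fold change of -2.09 (limma adjusted p = 0.107). *Hist1h2ae* was at 1.97, 5.50 and 1.57 RPKM and at 0.491, 1.33 and 1.09 RPKM. *Hist1h2ak* was at 1.44, 3.98 and 1.05 RPKM and at 0.574, 0.779 and 0.319 RPKM. Mouse 1.2 was the highest for the last 3 of these genes, and both *Hist1h2ae* and *Hist1h2ak* had cohorts that did not overlap. *Hist2h2ac*, the one tested H2A gene of the Hist2 cluster, had a log2 fold change of -0.88 (limma adjusted p = 0.102).

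H2B genes summed to 35.9, 63.9 and 26.0 RPKM in mice 1.1, 1.2 and 1.4 and to 17.4, 7.81 and 5.04 RPKM in mice 3.2, 3.3 and 3.5. The ratio of means was 0.240, and the sums of mice 1.1 and 1.2 rest in large part on *Hist1h2bg*, which did not pass the test. Of 10 tested H2B genes 0 were called by limma and 0 by limma voom, and the median log2 fold change was -1.17. An unadjusted p under 0.05 in the lower direction was found for 6 of them, against 16.0% of all tested genes. Without mouse 3.2, *Hist1h2bc*, *Hist1h2bj*, *Hist2h2be* and *Hist1h2bb*, the last named after its values were seen, were called lower. Without mouse 3.3, *Hist3h2ba* was called lower.
*Hist1h2bg* was at 16.1, 37.1 and 2.82 RPKM in mice 1.1, 1.2 and 1.4 and at 1.42, 1.07 and 0 RPKM in mice 3.2, 3.3 and 3.5. The *Hoxa9*/MTV mice themselves differed widely. Its log2 fold change of -3.48 was the most negative of the tested members and did not pass (limma adjusted p = 0.0823, SE 0.93). *Hist2h2be*, whose annotated transcript is unique over its whole length, was at 6.78, 6.07 and 8.09 RPKM and at 5.86, 3.08 and 2.01 RPKM, with a log2 fold change of -0.95 (limma adjusted p = 0.148).
*Hist1h2bc* was at 3.30, 5.82 and 5.00 RPKM in the *Hoxa9*/MTV cohort and at 2.98, 0.283 and 0.771 RPKM in the *Hoxa9*/*IRX3* mice, with a log2 fold change of -1.75 (limma adjusted p = 0.109). Mouse 3.2 lay just below the *Hoxa9*/MTV mice. *Hist1h2bj* was at 1.47, 2.60 and 2.23 RPKM and at 1.46, 0.441 and 0 RPKM. *Hist3h2ba*, the H2B gene of the Hist3 pair, was at 1.84, 0.980 and 1.35 RPKM and at 0, 0.665 and 0 RPKM, with a log2 fold change of -1.49 (limma adjusted p = 0.0693).

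**Figure D3:**
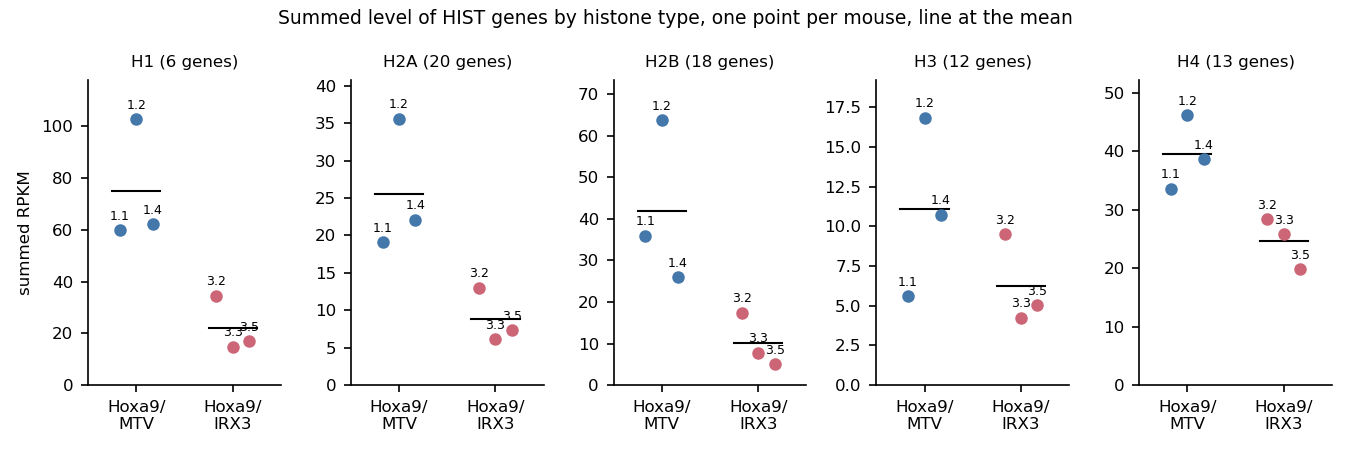
Summed RPKM of all HIST genes of each histone type in each mouse, with the line at the cohort mean; axes start at 0 and differ between panels. The cohorts do not overlap for H1, H2A, H2B and H4, and overlap for H3.

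H3 genes were the least abundant type and the only one whose sums overlapped. They summed to 5.60, 16.8 and 10.7 RPKM in mice 1.1, 1.2 and 1.4 and to 9.48, 4.24 and 5.03 RPKM in mice 3.2, 3.3 and 3.5. Of 11 tested H3 genes 1 fell, against 2.03% of all tested genes, and 1 (9.09%) was lower without overlap, against 21.6%. The median log2 fold change was -0.22, while the ratio of means was 0.565.
*Hist1h3d* (ENSMUSG00000099583; chr13:23575763-23577011, plus strand) was at 2.02, 4.08 and 1.85 RPKM in mice 1.1, 1.2 and 1.4 and at 0.202, 0.729 and 0.224 RPKM in mice 3.2, 3.3 and 3.5. The latter are 1, 4 and 1 reads. It fell by 1.81 on the log2 scale (SE 0.33), with limma's adjusted p at 0.0325. The call was lost without any 1 of mice 1.1, 1.2, 1.4, 3.2 and 3.5, with adjusted p between 0.0555 and 0.105 there. It was also lost with all gene types, without a filter on low values, with sample weights and with either voom fit.
*Hist1h3g* was at 0.265, 5.08 and 2.18 RPKM in the *Hoxa9*/MTV cohort and at 2.64, 0.478 and 2.64 RPKM in the *Hoxa9*/*IRX3* mice, and its cohorts overlapped. Its log2 fold change of -0.08 changed sign without mouse 1.2, 1.4 or 3.3. *Hist1h3a* was at 0.424, 2.25 and 1.36 RPKM and at 0.423, 0.191 and 0.704 RPKM. *Hist1h3i* was at 1.38, 1.46 and 0.503 RPKM and at 1.10, 0.248 and 0 RPKM. In both, the cohorts overlapped, with adjusted p of 0.249 and 0.296 by limma. In the Hist2 cluster, *Hist2h3c1*, *Hist2h3c2* and *Hist2h3b* had log2 fold changes of -0.22, 0.39 and -0.19, with adjusted p from 0.686 to 0.817 by limma, and no window of *Hist2h3c1* or *Hist2h3b* was unique. Each of these 3 changed sign with 1 mouse left out, *Hist2h3c1* without 1.4 or 3.5, *Hist2h3c2* without 3.2 and *Hist2h3b* without 1.4, 3.2 or 3.5.

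H4 genes summed to 33.6, 46.2 and 38.7 RPKM in mice 1.1, 1.2 and 1.4 and to 28.4, 25.8 and 19.8 RPKM in mice 3.2, 3.3 and 3.5, a ratio of means of 0.625. Of 11 tested H4 genes 0 were called by limma and 0 by limma voom. In the lower direction, 6 had an unadjusted p under 0.05, against 16.0% of all tested genes, and 7 did not overlap, against 21.6%. Without mouse 3.2, *Hist1h4c* was called lower. With all mice, all 11 had a log2 fold change below 0. The median was -0.88.
*Hist1h4i* (ENSMUSG00000060639; chr13:22040636-22041362, minus strand) was the most abundant H4 gene in every mouse and was at 20.8, 22.5 and 23.9 RPKM in mice 1.1, 1.2 and 1.4 and at 19.4, 19.9 and 14.8 RPKM in mice 3.2, 3.3 and 3.5. The cohorts did not overlap in RPKM but lay close, with a log2 fold change of -0.31 (limma adjusted p = 0.279, SE 0.16). In reads they overlapped, with 142 in mouse 3.3 against 134 and 136 in mice 1.1 and 1.2. It had the second highest mean RPKM of the members and the highest level of all in mice 3.3 and 3.5, and its values rest on between 86 and 168 reads.
*Hist1h4d* was at 2.88, 6.13 and 2.37 RPKM in the *Hoxa9*/MTV cohort and at 2.01, 1.82 and 1.28 RPKM in the *Hoxa9*/*IRX3* mice. *Hist1h4h* was at 2.63, 5.60 and 2.40 RPKM and at 1.67, 0.647 and 1.85 RPKM. *Hist1h4k* was at 1.45, 2.70 and 2.98 RPKM and at 1.45, 0.654 and 0 RPKM. None of these 3 genes had overlapping RPKM, though *Hist1h4k* held 4 reads in both mouse 1.1 and mouse 3.2, with adjusted p from 0.147 to 0.164 by limma. *Hist4h4*, the lone gene of the Hist4 cluster, had a log2 fold change of -0.76 (limma adjusted p = 0.0942).

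The histone genes outside these clusters, which mostly encode replacement histones whose mRNAs carry a poly(A) tail, give a comparison within the same libraries. Their 11 genes summed to 624, 783 and 709 RPKM in mice 1.1, 1.2 and 1.4 and to 499, 414 and 466 RPKM in mice 3.2, 3.3 and 3.5. These sums did not overlap, at a ratio of means of 0.652, against 0.373 for the HIST genes. Of 10 tested genes 0 were called by limma and 0 by limma voom, and the median log2 fold change was -0.60. An unadjusted p under 0.05 in the lower direction was found for 5 of the 10, against 16.0% of all tested genes. *H2afy*, which encodes macroH2A1, was lower by less than 2-fold, at -0.94 (limma adjusted p = 0.0367). Without mouse 3.3, 1 of the 10 was called. *H2afx*, the most abundant by mean RPKM, had -0.53 (limma adjusted p = 0.186) and *H2afj* -0.43 (limma adjusted p = 0.325).

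Genes of DNA replication, which runs alongside histone synthesis in S phase, were read as a list. The 29 DNA replication genes summed to 274, 268 and 255 RPKM in mice 1.1, 1.2 and 1.4 and to 234, 299 and 260 RPKM in mice 3.2, 3.3 and 3.5, and the cohorts overlapped. Of 28 tested, 0 were called by limma and 0 by limma voom, and 2 had an unadjusted p under 0.05 in the lower and 3 in the higher direction, and the median log2 fold change was -0.03. *Fen1* and *Rrm2*, the 2 with the highest mean RPKM, had log2 fold changes of 0.06 and 0.21. The cyclin gene *Ccne2* was higher by less than 2-fold, at 0.70 (limma adjusted p = 0.0448). For the 18 G2 and M phase genes, sums were 151, 139 and 147 RPKM and 116, 181 and 134 RPKM, the median log2 fold change was -0.16, 0 were called by either fit, and 4 were lower and 0 higher at an unadjusted p under 0.05. Over all tested genes the shares at that p were 16.0% lower and 8.34% higher. *Mki67* was at 0.24 and *Aurkb* at -0.53 on the log2 scale, and *Nusap1* at -0.56 (limma adjusted p = 0.0285), under the 2-fold limit.
Of the 18 tested genes for processing of histone mRNA, 0 were called by either fit, with 2 lower and 1 higher at an unadjusted p under 0.05 and a median log2 fold change of 0.03. *Ncbp2*, part of the cap-binding complex, was higher by 0.72 on the log2 scale (limma adjusted p = 0.0498), and *Srrt* and *Upf1*, the 2 with the highest mean RPKM, had -0.29 each. *Slbp*, chosen for naming after its values were seen, ranged from 2.42 to 3.64 RPKM in *Hoxa9*/MTV and from 2.67 to 4.31 RPKM in *Hoxa9*/*IRX3* mice. Of the 18 histone chaperone genes 0 were called by either fit, with 3 lower and 1 higher at an unadjusted p under 0.05 and a median of -0.11. These counts stand beside 16.0% lower and 8.34% higher over all tested genes. *Hjurp* and *Ssrp1*, first by mean RPKM, had log2 fold changes of 0.26 and -0.66 (adjusted p = 0.478 and 0.129 by limma).

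**Figure D4:**
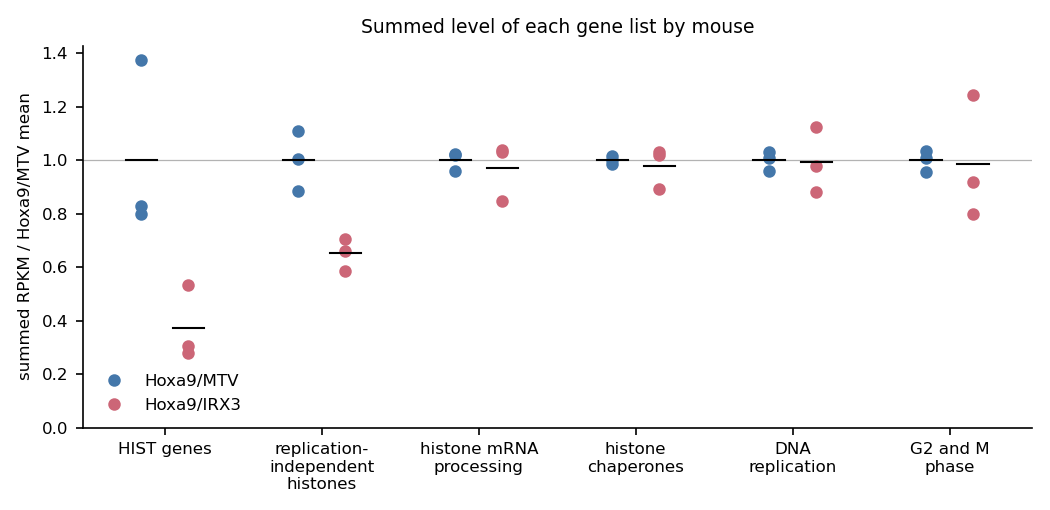
Summed RPKM of 6 gene lists in each mouse divided by the mean of the 3 *Hoxa9*/MTV mice, with the line at the cohort mean. The HIST genes and the replication-independent histone genes lie lower in all 3 *Hoxa9*/*IRX3* mice, at ratios of 0.373 and 0.652, and the other 4 lists overlap.

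RNAs with no poly(A) tail, such as small nucleolar RNAs, show how much of such RNA each library holds. Their 150 genes summed to 2087, 3397 and 3520 RPKM in mice 1.1, 1.2 and 1.4 and to 2592, 2036 and 877 RPKM in mice 3.2, 3.3 and 3.5, and the cohorts overlapped. These genes lie mostly in introns of longer genes, whose RNA adds to their values. Mouse 3.5 had the lowest sum both here and among the HIST genes, and the part of tail selection in the HIST values was not tested.
Markers of other cells were counted by list. Of 8 erythroid markers 5 were at 0 in every mouse, and the most abundant was *Klf1*. Their sums were 0.213, 0.121 and 0.0307 RPKM in the *Hoxa9*/MTV mice and 0.268, 0.303 and 0.298 RPKM in the *Hoxa9*/*IRX3* mice, higher without overlap. These sums rest on only 6, 5 and 1 reads against 8, 10 and 8 reads. Of 6 B cell markers 2 were at 0, and the sums of 6.26, 7.10 and 7.13 RPKM in the *Hoxa9*/MTV mice and 0.588, 0.276 and 2.31 RPKM in the *Hoxa9*/*IRX3* mice were led by *Cd79b*, which was called lower (-2.65, limma adjusted p = 0.0383). *Cd79a* gave 0.258 and 0.127 RPKM of the sums in mice 3.2 and 3.3, while *Pax5* and *Ms4a1* were at 0. The T and NK cell list summed to 482 RPKM in mouse 3.5 and to between 14.9 and 100.2 RPKM in the others. *Nkg7* gave nearly all of these sums, *Cd3d* was at 0 in every mouse, and *Cd3e*, *Cd3g* and *Cd8a* were at 0 in the *Hoxa9*/*IRX3* mice with at most 1 read in each *Hoxa9*/MTV mouse. The megakaryocyte list reached 12.8 RPKM, led by *Gp1bb* with *Ppbp* at 0. The stroma list summed to 0.106, 0.00697 and 0.0859 RPKM in the *Hoxa9*/MTV mice and to 0.153, 0.390 and 0.464 RPKM in the *Hoxa9*/*IRX3* mice, higher without overlap. The stroma list held 13, 4 and 12 reads against 34, 57 and 115 reads, and *Cxcl12* had its highest mean over the mice. The part of these transcripts in the HIST values was not tested.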

How the data were processed

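RNA of sorted KIT+Gr1+ leukemia cells from 6 mice, 3 of each cohort, was analyzed, with cohorts taken from the sample labels. The authors aligned reads to GRCm38 with Bowtie2 2.2.1, filtered them with SAMtools 0.1.19, assigned them to genes and deposited RPKM per gene and mouse. 0 columns of values per sample were unused. GENCODE M21 gave types and positions. RPKM divide by the whole gene span. Reads were recovered from the steps between low values and were whole, within 0.01 of a read, on that span for 40 of 61 members with reads. For the other 21, the shortest length giving whole reads in all libraries was used, so that their reads are the fewest that fit. Protein-coding genes over 0.5 RPKM in at least 1 mouse were fitted with limma 3.58.1 in R 4.3.3 (lmFit, eBayes with a variance trend, pseudocount 0.5), checked on simulated data. *Hist1h2bh* and *Hist1h2bm* had no entry in GENCODE M21 and were not tested. Stem-loop and uniqueness searches used GENCODE M21 transcripts and promoters came from RefSeq. Tables and plots were made in Python 3.11.15 (pandas 2.3.3, numpy 2.4.6, matplotlib 3.10.9).

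Named members are the 4 of each type with the highest mean RPKM, all with an adjusted p under 0.05, and those outside Hist1 over 0.5 RPKM in at least 1 mouse. Of each further list, the 2 genes with the highest mean RPKM and those with an adjusted p under 0.05 (at most 4) are named. The members and lists were chosen with earlier results of these data known. The alternatives were other pseudocounts, filters, gene types, scalings, variance models and tests, and leaving out each mouse.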

Additional observations from a re-analysis of the deposited data

How the results depend on the processing

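The log2 ratio of summed HIST levels stayed below 0 under every alternative run for it, between -1.77 and -1.13 when 1 mouse was left out. The 25 members lower without overlap became 26 to 30 with 1 mouse left out, where fewer values have to be ordered, and 21 and 20 with median-of-ratios and quantile scaling. The share of all tested genes was not counted under these settings, so whether the excess over it held was not tested. No HIST gene was called higher under any alternative. The number called lower, 4, depended on the mice and the test. It ranged from 0 to 11 with 1 mouse left out, was 1 with limma voom on recovered reads and 10 by a criterion modeled on that of the study (an unpaired test, not limma, with means over 2-fold apart and p under 0.05 before adjustment, for which equal variances and untransformed RPKM were chosen here). Of the 27 named members and 14 named genes of the further lists, 4 were called, between 0 and 9 with a mouse left out, and 1 with voom. Over all tested genes, calls ranged from 37 to 257 lower and from 24 to 152 higher with a mouse left out, with 46, 41 and 37 lower and 28, 25 and 24 higher without mouse 1.1, 1.2 and 1.4. They were 449 lower and 215 higher by that criterion, 109 and 66 without a filter on low values, and 66 higher at a pseudocount of 1. With voom on the tested genes they were 222 and 143, and on all genes with reads, chosen after seeing the data, 441 and 349. The cause was not tested.

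The median log2 fold change of tested HIST genes ranged from -1.08 to -0.67 with a mouse left out. It was -0.64 at a pseudocount of 1, -1.35 at a pseudocount of 0.1, -1.37 with voom and -1.29 with voom on all genes with reads. By the criterion modeled on that of the study, with untransformed RPKM, it was -1.57. Named genes whose log2 fold change turned sign had not passed the test. *Hist1h3g* turned to 0.0046 at a pseudocount of 0.1, 0.0074 with quantile scaling, 0.10 with sample weights, and 0.57, 0.044 and 0.48 without mouse 1.2, 1.4 and 3.3. *Hist2h3c1* turned to 0.0032 and 0.0017 without mouse 1.4 and 3.5, *Hist2h3c2* to -0.18 without mouse 3.2, and *Hist2h3b* to 0.12, 0.0087 and 0.0087 without mouse 1.4, 3.2 and 3.5. Without mouse 3.3, *Fen1* turned to -0.0051 and *Mki67* to -0.027. Replication-independent histone genes called ranged from 0 to 1, the other lists staying at 0. Leaving out *Hist1h1c* or using reads in place of RPKM, both also chosen after seeing the data, moved the log2 ratio by less than the spread between mice. No paired analysis was possible because the mouse numbers of the cohorts are not shared. The low reads per member limit all single calls.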
